A study of Mus musculus with 6 samples.

Results

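The cytotoxic programme was followed in whole spleen through 10 genes: the granzyme genes Gzma, Gzmb, Gzmc, Gzmk and Gzmm, the perforin gene Prf1, the granule membrane gene Nkg7, the transcription factor genes Tbx21 and Eomes, and the receptor gene Ncr1. They were chosen by symbol, and all 10 were found among 31771 gene identifiers. A filter on low counts kept 19573 genes for testing, with 9 of the members among them and Gzmc left out. Messenger RNA was sequenced from 6 samples of C57BL/6 mouse spleen, 3 carrying VEC-Cre, an SB transposase and onc2 (mutants 1, 2 and 3) and 3 labelled WT (controls 1, 2 and 3). VEC-Cre is Cre recombinase driven by the promoter of the VE-cadherin gene Cdh5. That promoter is active in endothelium, including the embryonic endothelium from which blood cells descend. Sleeping Beauty (SB) transposase moves the onc2 transposon to new genomic sites, which differ between animals, and an insertion can activate or disrupt a gene. By their label the controls carry none of these. Age is not given in the sources used here, and nothing ties a mutant to a control.

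The libraries held 72902118 to 79258116 gene counts, and levels are given as CPM (counts per 10 to the power 6 counts of the library). The female-specific transcript Xist was high in mutants 1 and 2 (1513 and 580 CPM) and at 0.423 to 0.663 CPM in the other 4 libraries, in which the Y-linked Ddx3y was at 55.0 to 62.7 CPM. Sex and genotype therefore cannot be told apart for those 2 samples. Of all genes tested, 995 were higher and 1351 lower in mutants, and the B-cell markers of the spleen fell in every mutant (given with the other markers).

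Cytotoxic lymphocytes, mainly natural killer (NK) cells and CD8 T cells, kill by releasing granules at the contact with a target cell. Perforin inserts into the target's membrane, and granzymes, which are serine proteases, enter and cleave proteins in the target. T-bet and Eomes, encoded by Tbx21 and Eomes, are T-box transcription factors that direct NK cell maturation and effector T-cell function. Granzyme genes lie in clusters with other blood-cell proteases: Gzmb and Gzmc belong to a cluster on chromosome 14 that also holds mast cell chymases and cathepsin G, Gzma and Gzmk are neighbours on chromosome 13, and Gzmm lies on chromosome 10 near the neutrophil protease genes Prtn3 and Elane. Gzmb is also expressed by mast cells and plasmacytoid dendritic cells in some states.

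The bases from position -210 to position -11 before the annotated start are shown for 4 members whose levels followed different courses in the mutants, as described further on: Gzma, Gzmb, Prf1 and Ncr1. The sequences are RefSeq's on GRCm38.p6, written 5′ to 3′ on the gene's own strand. Capitals mark matches, on either strand, to any of 5 short motifs: GGTGTGA for T-box factors, TGTGGT for RUNX factors, GGAAGT for ETS factors, TGANTCA for AP-1 and TTCNNNGAA for STAT factors.
Gzma, chr13:113100992-113101191, minus strand: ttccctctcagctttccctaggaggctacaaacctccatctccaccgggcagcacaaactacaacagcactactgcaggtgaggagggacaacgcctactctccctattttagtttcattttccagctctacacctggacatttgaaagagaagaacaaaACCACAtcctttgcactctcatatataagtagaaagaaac
Gzmb, chr14:56262345-56262544, minus strand: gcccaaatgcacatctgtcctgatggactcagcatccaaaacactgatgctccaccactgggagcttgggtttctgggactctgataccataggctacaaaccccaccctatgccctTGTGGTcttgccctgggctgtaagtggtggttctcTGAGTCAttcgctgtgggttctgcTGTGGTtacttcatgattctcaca
Prf1, chr10:61297626-61297825, plus strand: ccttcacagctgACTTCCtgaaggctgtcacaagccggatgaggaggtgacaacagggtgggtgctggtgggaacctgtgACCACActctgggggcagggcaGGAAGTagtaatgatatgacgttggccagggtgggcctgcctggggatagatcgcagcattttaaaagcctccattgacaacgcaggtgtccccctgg
Ncr1, chr7:4337505-4337704, plus strand: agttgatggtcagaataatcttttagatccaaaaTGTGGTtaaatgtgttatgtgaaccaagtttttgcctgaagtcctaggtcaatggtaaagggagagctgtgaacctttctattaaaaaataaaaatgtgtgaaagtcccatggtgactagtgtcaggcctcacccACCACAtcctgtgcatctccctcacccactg

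Over all 10 members, the RUNX letters stood in the windows of 6 (Gzma, Gzmb, Gzmc, Prf1, Nkg7 and Ncr1) and the ETS letters in those of 3 (Gzmc, Gzmk and Prf1), while Tbx21 and Eomes held none of the 5 motifs. The 4 windows shown all held the RUNX letters, at position -50 in Gzma, at -93 and -34 in Gzmb, at -130 in Prf1 and at -176 and -41 in Ncr1. Of 32510 windows of this length in RefSeq promoters, 11.3% held that motif. The Gzmb window also held the AP-1 letters at -58, which 5.52% of windows hold. The Prf1 window held the ETS letters at -198 and -108, which 16.2% of windows hold. The T-box letters were in none of the 4 windows but stood in the Gzmk window at -75 and in the window of a second Gzmm start at -189, against 2.66% of all windows. The STAT letters, in 5.53% of windows, were found among the members at the first Gzmm start, at -86. Overlaps between these motifs did not occur in the 4 windows shown. A match is a string of letters and does not show binding.

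In control spleens the levels per kilobase of exon, which can be set against each other between genes, were led by Nkg7 at 44.8 ± 3.89 CPM per kilobase (SD, n = 3). Gzma followed at 15.1 ± 4.60, Tbx21 at 6.01 ± 0.840, Prf1 at 5.44 ± 0.621, Eomes at 2.75 ± 0.473, Ncr1 at 2.66 ± 0.714, Gzmb at 1.64 ± 0.520, Gzmk at 0.971 ± 0.211, Gzmm at 0.763 ± 0.142 and Gzmc at 0.0769 ± 0.0443 CPM per kilobase. The control ranges of neighbours in this order overlapped for Tbx21 and Prf1, and for each neighbouring pair from Eomes down to Gzmm. They stood apart between Nkg7 and Gzma, between Gzma and Tbx21, between Prf1 and Eomes, and between Gzmm and Gzmc. The order was not kept in the mutants. On the same scale Gzmb led in mutant 1 at 562 CPM per kilobase, ahead of Nkg7 at 38.0, whereas Nkg7 led in mutant 2 (35.9) and in mutant 3 (18.1), followed by Gzma in mutant 2 (8.78) and by Prf1 in mutant 3 (12.2).

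Measured as fold differences, the 3 mutant spleens differed from one another in their cytotoxic transcripts more than the controls did. In CPM the SD was smaller in mutants than in controls for Tbx21 (1.28 against 2.09) and Gzma (4.16 against 4.63), and larger for the other members. The regulators Tbx21 and Eomes were lowest in mutants 1 and 3, Gzmb was very high in mutant 1 alone, Prf1 was above the controls in mutant 3 alone, and mutant 2 lay nearest to the controls for most members. In whole tissue, fewer cells of a type and less RNA per cell cannot be told apart. By edgeR's quasi-likelihood test with Benjamini-Hochberg adjustment over all genes, 0 of the 9 tested members rose and 0 fell, where 5.08% of all genes tested were called higher and 6.90% lower. Without adjustment 2 members, Tbx21 and Gzmb, had an edgeR p under 0.05, as did 31.2% of all genes tested. All 3 mutants lay below all 3 controls for 4 members, Tbx21, Eomes, Gzma and Nkg7, an arrangement found for 22.6% of genes tested. The opposite arrangement was found for 0 members and 18.0% of genes. The median log2 difference from the control mean over the 9 tested members was -3.48, -0.64 and -2.96 for mutants 1, 2 and 3, against -0.05, -0.02 and -0.02 over all genes tested. Here log2 differences in a single mutant are of log2 CPM with scaling factors from edgeR's TMM method and a prior count of 2, and log2 fold changes between groups are fitted values of mutant over control ± SE.

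**Figure D1:**
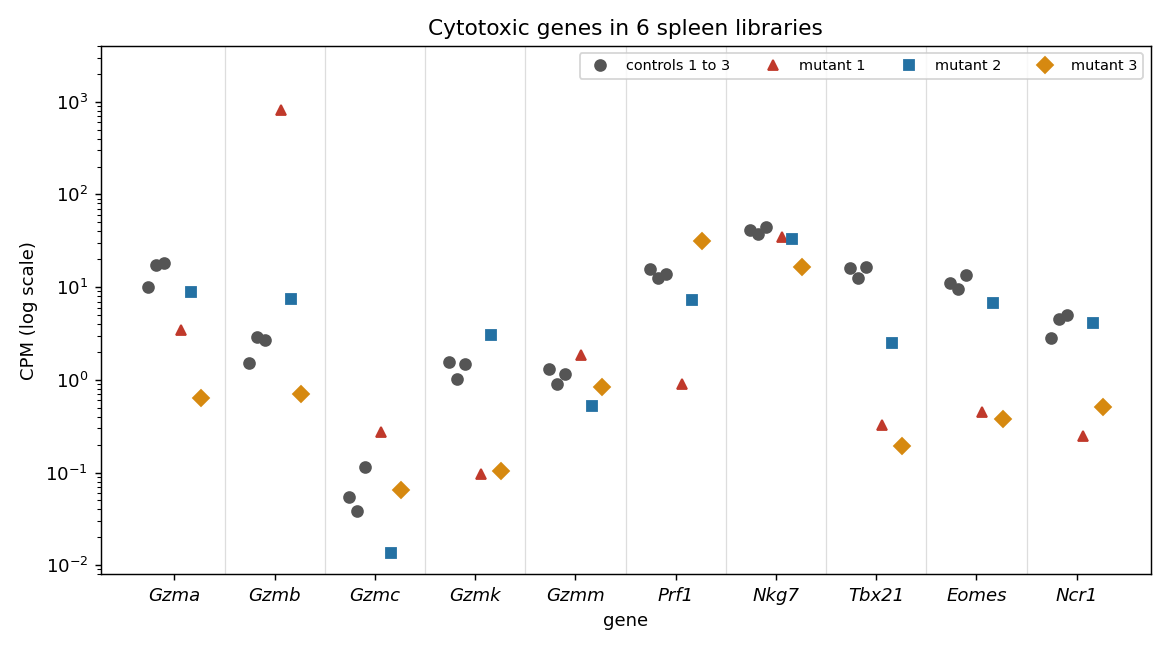
Level of each of the 10 genes in CPM (vertical axis, log scale) in each spleen library, with circles for the 3 controls and a triangle, square and diamond for mutants 1, 2 and 3. Gzmb stands at 807 CPM in mutant 1 against 1.50 to 2.87 CPM in controls, Prf1 at 31.4 CPM in mutant 3, and Tbx21 below all controls in every mutant.

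Tbx21 (ENSMUSG00000001444, chromosome 11, 97098071 to 97115331, minus strand) stood at 15.9, 12.5 and 16.4 CPM in controls 1, 2 and 3 and at 0.329, 2.47 and 0.195 CPM in mutants 1, 2 and 3. The groups did not overlap, and mutant 2 held the highest level among the mutants. The fitted log2 fold change was -3.83 ± 1.07 (adjusted p = 0.0699 by edgeR), the nearest of the members to the threshold. The counts behind it were 24, 184 and 15 in the mutants against 978 to 1298 in the controls.

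Eomes (ENSMUSG00000032446, chromosome 9, 118478212 to 118486132, plus strand) was at 11.1, 9.65 and 13.5 CPM in the controls, against 0.453, 6.71 and 0.378 CPM in mutants 1, 2 and 3. Mutants 1 and 3 were 25.3-fold and 30.3-fold below the control mean, and mutant 2 was 1.70-fold below it. The log2 fold change was -2.10 ± 1.19 (adjusted p = 0.280 by edgeR). An antisense gene that overlaps Eomes, Gm33460, was at no more than 0.271 CPM in any library. The ratio of Eomes to Tbx21 counts was 0.698 to 0.827 in controls and 1.38, 2.71 and 1.93 in mutants 1, 2 and 3, so that in each mutant Tbx21 lay further below the controls than Eomes did.

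Ncr1 (ENSMUSG00000062524, chromosome 7, 4337724 to 4345164, plus strand) encodes NKp46, an activating receptor of NK cells and other innate lymphoid cells. It was at 2.86, 4.49 and 4.95 CPM in the controls, against 0.247, 4.10 and 0.508 CPM in mutants 1, 2 and 3. Mutant 2 lay within the control range, and mutants 1 and 3 were 16.6-fold and 8.06-fold below the control mean. The fitted change over all libraries was -1.26 ± 1.07 (adjusted p = 0.467 by edgeR).

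Prf1 (ENSMUSG00000037202, chromosome 10, 61297833 to 61304680, plus strand), the perforin gene, was at 15.8, 12.6 and 13.9 CPM in the controls, against 0.905, 7.19 and 31.4 CPM in mutants 1, 2 and 3. Each mutant lay outside the control range, mutants 1 and 2 below it and mutant 3 above it. Mutant 1 was 15.5-fold below the control mean and mutant 3 was 2.23-fold above it. The mutant mean of 13.2 ± 16.1 CPM was close to the control mean of 14.1 ± 1.60 CPM, and the fitted log2 change was -0.12 ± 1.05 (adjusted p = 0.950 by edgeR). In mutant 3 the ratio of Prf1 to Gzma counts was 49.2, against 0.725 to 1.59 in controls, 0.261 in mutant 1 and 0.814 in mutant 2.

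Gzmb (ENSMUSG00000015437, chromosome 14, 56258838 to 56262260, minus strand) encodes granzyme B, a protease that cleaves after aspartate and triggers apoptosis. It was at 1.50, 2.87 and 2.70 CPM in the controls, against 807, 7.38 and 0.704 CPM in mutants 1, 2 and 3. Mutant 1 held 58817 counts, 342-fold above the control mean, while mutant 2 was 3.13-fold above it and mutant 3 was 3.35-fold below it. Of 19573 genes tested, 11 had a larger log2 difference from the control mean in mutant 1 than Gzmb had (8.44). The fitted log2 fold change of 6.83 ± 2.53 (adjusted p = 0.130 by edgeR) rested on mutant 1, without which it was 0.87 ± 0.98 (adjusted p = 0.566). With all 6 libraries limma-voom gave smaller values, 1.01 ± 1.72 with sample weights (adjusted p = 0.730) and 2.77 ± 1.78 with group-wise variances (adjusted p = 0.379). By edgeR, leaving out either of the other mutants gave 7.40 ± 2.41 and 7.42 ± 1.87 (adjusted p = 0.0777 and 0.0732).

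Gzma (ENSMUSG00000023132, chromosome 13, 113093825 to 113100981, minus strand), which encodes a granzyme with trypsin-like specificity and led the granzymes in controls, was at 9.92, 17.3 and 18.4 CPM there. It was at 3.47, 8.83 and 0.638 CPM in mutants 1, 2 and 3. The highest mutant lay just under the lowest control, and mutant 3 was 23.9-fold below the control mean. The fitted change was -1.76 ± 0.90 (adjusted p = 0.240 by edgeR). The count of Gzmb per count of Gzma, 0.147 to 0.166 in the controls, reached 232, 0.836 and 1.10 in mutants 1, 2 and 3, each above every control.

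Gzmk (ENSMUSG00000042385, chromosome 13, 113171608 to 113225908, minus strand), a granzyme gene of memory T cells, was at 1.56, 1.01 and 1.48 CPM in the controls. It was at 0.0960, 3.03 and 0.104 CPM in mutants 1, 2 and 3, that is, at 7 and 8 counts in mutants 1 and 3 and above every control in mutant 2. The fitted change over all libraries was -0.24 ± 1.34 (adjusted p = 0.920 by edgeR). The annotated span of Gzmk overlaps Esm1 on the opposite strand, at 8.51 to 10.4 CPM in controls, against 0.768, 0.793 and 7.11 CPM in the mutants. The strand setting of the counting is not given in the sources used here, so the Gzmk counts are uncertain to that extent.

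Gzmm (ENSMUSG00000054206, chromosome 10, 79689020 to 79695261, plus strand), which encodes a granzyme first described in NK cells, was at 1.31, 0.898 and 1.16 CPM in the controls, against 1.84, 0.524 and 0.834 CPM in mutants 1, 2 and 3. Mutant 1 was above the controls and the other mutants were below them, at 1.64-fold above the control mean in mutant 1 and 2.14-fold and 1.35-fold below it in mutants 2 and 3. Its fitted change was -0.08 ± 0.54 (adjusted p = 0.930 by edgeR).

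Gzmc (ENSMUSG00000079186, chromosome 14, 56231441 to 56234656, minus strand), a granzyme gene of strongly activated killer cells, had 4, 3 and 9 counts in the controls and 20, 1 and 5 counts in mutants 1, 2 and 3. At these counts it was not tested, and 1 to 20 counts per library do not resolve differences among most of the libraries. Of 845 different 50-base words in its annotated transcript, 35 occur in another granzyme transcript and 0 in that of Gzmb, so a small part of its reads could be shared with other genes of the cluster. Its neighbours Gzme, Gzmg and Gzmn had 0 counts in the controls and in mutants 2 and 3, and Gzme had 8 counts in mutant 1. Gzmd and Gzmf were not analysed here.

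Nkg7 (ENSMUSG00000004612, chromosome 7, 43437073 to 43438249, plus strand), which encodes a granule membrane protein needed for granule release, was at 41.2, 37.3 and 44.4 CPM in the controls, against 34.7, 32.8 and 16.6 CPM in mutants 1, 2 and 3. The groups did not overlap, and the mutants lay 1.18-fold, 1.25-fold and 2.47-fold below the control mean (log2 change -0.52 ± 0.32, adjusted p = 0.318 by edgeR). In mutant 1, where Ncr1, Prf1, Tbx21 and Eomes were each more than 15-fold below the control mean, Nkg7 was thus near its control level. The ratio of Nkg7 to Ncr1 counts was 8.31 to 14.4 in controls, 141 in mutant 1, 8 in mutant 2 and 32.6 in mutant 3.

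**Figure D2:**
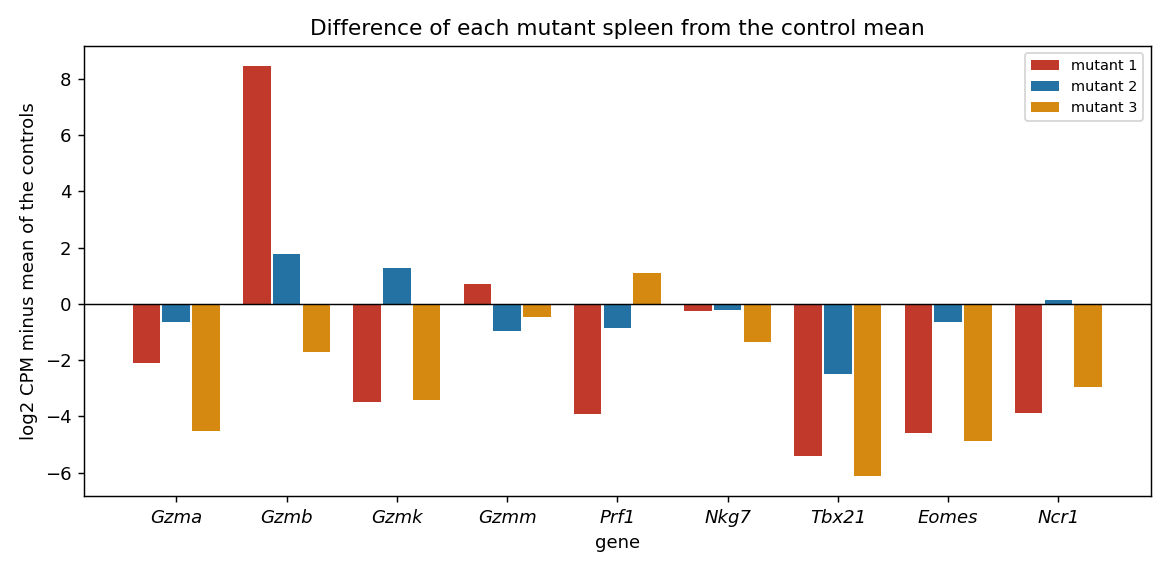
Difference of log2 CPM in each mutant spleen from the mean of the 3 controls (vertical axis, log2 units) for the 9 tested genes, with 1 bar per mutant. Tbx21, Eomes, Gzma and Nkg7 are below 0 in every mutant, Gzmb is at 8.44 in mutant 1 and -1.70 in mutant 3, and Prf1 is at -3.93 in mutant 1 and 1.11 in mutant 3.

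The calls of some members depended on mutant 2 and on the tool. Without mutant 2, 4 members fell by edgeR: Tbx21 (log2 -5.85 ± 0.41, adjusted p = 0.00246), Eomes (-4.80 ± 0.34, adjusted p = 0.00240), Gzmk (-3.76 ± 0.46, adjusted p = 0.00717) and Ncr1 (-3.46 ± 0.53, adjusted p = 0.0121), where 15.3% of all genes tested were called lower. Those members were then compared in mutants 1 and 3 against the 3 controls. Gzma did not pass in that comparison (-2.91 ± 0.84, adjusted p = 0.0579), nor did Gzmb (adjusted p = 0.0777), and Prf1, Gzmm and Nkg7 had adjusted p of 0.937, 0.753 and 0.184. With all 6 libraries other tools called Tbx21 lower: DESeq2 (adjusted p = 0.000574, with 11.1% of genes called lower), limma-voom with sample weights (adjusted p = 0.0171, 9.36% of genes) and limma-voom with group-wise variances (adjusted p = 0.0450, 3.89% of genes). Eomes fell by limma-voom with sample weights as well (adjusted p = 0.0272). DESeq2 gave no adjusted p for Gzmb, Gzmk and Ncr1. The adjusted p of Tbx21 ranged from 0.000574 to 0.211 over all alternatives.

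**Figure D3:**
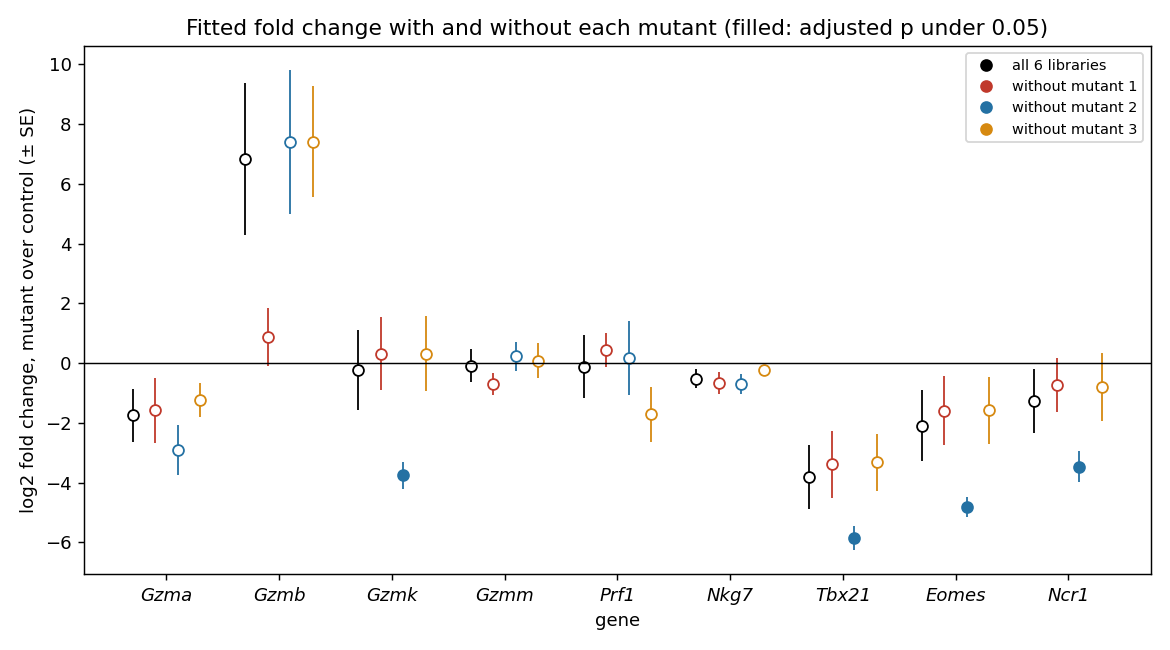
Fitted log2 fold change of mutant over control ± SE by edgeR (vertical axis) for the 9 tested genes, with all 6 libraries and with each mutant left out, filled where the adjusted p was under 0.05. Filled points appear only without mutant 2, for Gzmk, Tbx21, Eomes and Ncr1, and the Gzmb value drops from 6.83 to 0.87 without mutant 1.

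Other proteases lie near granzyme genes on chromosomes 10 and 14. Of 12 listed genes 8 were tested, of which 3 rose and 1 fell (median log2 1.89, against 0.10 over all genes tested, where 5.08% rose and 6.90% fell). Ctsg, the cathepsin G gene of neutrophil primary granules on chromosome 14, rose from 2.24 ± 0.882 to 37.1 ± 15.3 CPM (log2 4.05 ± 0.45, adjusted p = 0.00841 by edgeR). Prtn3, the proteinase 3 gene on chromosome 10, was at 4.38 to 12.5 CPM in controls, against 416, 56.7 and 90.9 CPM in mutants 1, 2 and 3 (log2 4.50 ± 0.92, adjusted p = 0.0323). Prss57, a further neutrophil serine protease gene on chromosome 10, rose by 3.02 ± 0.58 (adjusted p = 0.0281). Cma1, a mast cell chymase gene on chromosome 14, fell from 0.950 ± 0.315 to 0.152 ± 0.0223 CPM (log2 -2.61 ± 0.45, adjusted p = 0.0215). Mcpt1, another mast cell protease gene there, named after its values were seen, had 0 counts in the controls. It stood at 4.38 CPM in mutant 1 and at 0.0538 and 0.0651 CPM in mutants 2 and 3. Further genes of the list there, named in the same way, differed. Mcpt4 was below the controls in every mutant (0.274, 0.0807 and 0 CPM, against 0.338 to 0.505 CPM). Mcpt2 (0.508 CPM, against 0.0406 to 0.303 CPM) and Mcpt8 (1.98 CPM, against 0.667 to 1.77 CPM) were above the controls in mutant 1. Cma2 and Mcpt9 had 0 counts in the controls and 23 and 7 counts in mutant 1.

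Genes that process, store or release granules gave 0 calls among 14 tested (median log2 0.66), where 5.08% of all genes tested rose and 6.90% fell. Srgn, which encodes the proteoglycan serglycin on which granzymes are packed, was at 260 to 284 CPM in controls, against 921, 315 and 285 CPM in mutants 1, 2 and 3 (adjusted p = 0.246 by edgeR). The highest level was again in mutant 1. Cst7, which encodes cystatin F, an inhibitor of the protease that activates granzymes, was at 13.8 to 15.3 CPM in controls, against 1.12, 8.77 and 97.6 CPM in the mutants, with its order among them the same as that of Prf1 (adjusted p = 0.553). Cst7 was named after its values were seen. Of the rest of the list, named in the same way, Lyst and Sytl3 had that order and the others did not. Sytl1 and Sytl2 were lowest in mutant 3 (0.912 and 0.182 CPM, against 5.62 to 6.48 and 3.82 to 4.78 CPM in controls). Rab27a was highest in mutant 1 (167 CPM, against 27.3 to 33.4 CPM in controls). Of 5 serpin genes listed as granzyme inhibitors 0 passed (median log2 0.89). The most abundant, Serpina3g, was at 156 ± 43.5 CPM in controls, against 943, 229 and 416 CPM in the mutants, all above the controls (log2 1.76 ± 0.52, adjusted p = 0.0800). It was the only 1 of the 5 above all controls in every mutant, an arrangement found for 18.0% of genes tested. Serpinb9, named after its values were seen, was at 33.1 to 47.7 CPM in controls, against 14.7, 28.2 and 52.4 CPM in mutants 1, 2 and 3. Inhibition of granzymes was not measured.

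Among death ligands and cytokines of killer cells, 3 of 9 fell and 0 rose (median log2 -1.48), where 6.90% of all genes tested fell and 5.08% rose. Lta, the lymphotoxin alpha gene of B and T lymphocytes, fell from 29.3 ± 2.38 to 0.551 ± 0.263 CPM (log2 -5.70 ± 0.49, adjusted p = 0.00414 by edgeR). Tnf, the tumour necrosis factor gene, fell from 16.6 ± 0.561 to 4.82 ± 2.30 CPM (log2 -1.75 ± 0.43, adjusted p = 0.0499). Xcl1, a chemokine gene of NK and CD8 T cells, was at 2.85 ± 0.142 CPM in controls, against 0.0686, 0.444 and 0.0651 CPM in the mutants (log2 -3.82 ± 0.91, adjusted p = 0.0467). B cells express Lta and macrophages Tnf, so these genes do not belong to killer cells alone.

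Of 14 transcription factors of innate lymphoid and CD8 effector cells 1 fell and 0 rose (median log2 -0.15), a share near the 6.90% of all genes tested that fell. It was Zfp683, which encodes Hobit, a factor of tissue-resident lymphocytes, with 758 counts over the controls and 14 over the mutants (log2 -5.64 ± 1.10, adjusted p = 0.0289 by edgeR). Tox, a factor needed for NK and T-cell development, was at 9.02 to 13.1 CPM in controls, against 530, 8.48 and 0.951 CPM in the mutants, so that mutant 1 stood far above the rest, as it did for Gzmb. Ets1 and Gata3, both lymphocyte factors, were lowest in mutant 1 and above the controls in mutant 3, as Prf1 was. Ets1 was at 587 to 660 CPM in controls, against 45.5, 52.8 and 1648 CPM in mutants 1, 2 and 3, and Gata3 at 10.1 to 11.0 CPM and 0.535, 2.72 and 19.9 CPM. Tox, Ets1 and Gata3 did not pass (adjusted p = 0.240, 0.951 and 0.800 by edgeR), and of these Tox and Ets1 were named after their values were seen. The rest of the list, named in the same way, went different ways in mutant 3. Stat4 (1.19 CPM, against 22.0 to 23.8 CPM in controls) and Runx3 (13.9 CPM, against 72.6 to 84.2 CPM) lay below the controls there. So did Rora, Prdm1, Id2, Zbtb16 and Bhlhe40. Nfil3 (7.31 CPM, against 3.17 to 4.20 CPM) and Zeb2 lay above them, and Ikzf2 lay within their range.

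Of 8 cytokine receptor genes of killer cells 0 passed (median log2 -0.07), where 5.08% of all genes tested rose and 6.90% fell. Il21r, the receptor for interleukin 21, was at 251 ± 13.4 CPM in controls, against 8.97, 74.9 and 13.3 CPM in mutants (log2 -2.88 ± 0.88, adjusted p = 0.0851 by edgeR). The interleukin 18 receptor genes Il18r1 and Il18rap, named after their values were seen, were at 17.4 to 23.3 and 15.1 to 21.3 CPM in controls. In mutant 1 they stood at 219 and 255 CPM, in mutant 2 at 4.60 and 13.9 CPM and in mutant 3 at 0.599 and 5.08 CPM. Mutant 1 was the high library for this pair, as for Gzmb and Tox, but not for the whole list. The rest of the list was also named after its values were seen. Il15ra (22.1 CPM) and Il12rb2 (2.10 CPM) were above the controls in mutant 1. Below them there, as Il21r was, were Il2rb (3.06 CPM, against 55.5 to 72.7 CPM in controls) and Il2rg (25.4 CPM, against 173 to 194 CPM). Il12rb1 was below them too (0.604 CPM, against 6.01 to 9.60 CPM).

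Markers of the cell types that can carry cytotoxic transcripts moved with some members and against others, and their part in these results was not tested. The counts of calls on these lists stand beside 6.90% of all genes tested called lower and 5.08% called higher. The 12 NK cell markers, which include Ncr1, summed to 90.1 to 106 CPM in controls and to 14.2, 55.3 and 13.0 CPM in mutants 1, 2 and 3, with 2 called lower and 0 higher. Their most abundant members were Klrd1, which encodes CD94, at 26.1 ± 1.54 CPM in controls, against 0.741, 8.01 and 0.521 CPM in mutants (adjusted p = 0.134 by edgeR), and Cd244a, at 19.7 ± 3.04 and 8.90 ± 4.39 CPM (adjusted p = 0.135). The 8 markers of CD8 T cells, some of which all T cells share, summed to 553 to 644 CPM in controls and to 10.7, 88.0 and 8.32 CPM in mutants, with 2 lower. Cd2 was at 159 ± 2.38 and 5.80 ± 6.66 CPM (adjusted p = 0.0338), and Cd8a, which encodes the CD8 alpha chain, was at 104 ± 12.3 CPM in controls, against 0.837, 15.6 and 1.24 CPM in mutants (adjusted p = 0.0858). Both lists were lowest in mutants 1 and 3, the samples in which Tbx21, Eomes, Ncr1 and Gzmk were lowest. Other members ran against these lists: Prf1 was highest in mutant 3, Gzmb and Gzmm were highest in mutant 1, and Nkg7 was near its control level in mutant 1. All 3 mutants lay below the controls for 8 of 8 CD8 T-cell markers and 9 of 12 NK cell markers, beside 22.6% of genes tested.

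The 5 markers of CD4 T cells summed to 125 to 154 CPM in controls and to 13.9, 219 and 8.48 CPM in mutants, with 1 lower. Cd4 itself was at 85.0 to 107 CPM in controls, against 5.20, 197 and 6.59 CPM in mutants 1, 2 and 3, whereas Icos was at 16.4 ± 2.65 and 3.33 ± 2.94 CPM. The 10 mast cell and basophil markers summed to 64.0 to 67.5 CPM in controls and to 715, 87.5 and 318 CPM in mutants, with 0 of 9 tested called, and mutant 1, the library high in Gzmb, was the highest. On average over the 6 libraries the most abundant were Gata2 (12.6 to 14.6 CPM in controls, 399, 18.0 and 125 CPM in mutants) and Kit (34.2 to 42.4 CPM, and 127, 29.2 and 108 CPM), which blood progenitors also express. The defining mast cell gene Cpa3 was at 0.681 to 0.911 CPM in controls, against 3.22, 0.807 and 0.117 CPM in mutants 1, 2 and 3, and Fcer1a, a chain of the receptor for immunoglobulin E, was at 0.114 to 0.352 CPM in controls, against 169, 0.0941 and 0.0261 CPM. Both were named after their values were seen. The rest of the list, named in the same way, did not all follow them. In mutant 1 Ms4a2 was also high (4.86 CPM, against 0.893 to 0.946 CPM in controls), and Mcpt8 and Hdc were slightly above the controls. Prss34 (0.837 CPM, against 0.616 to 1.73 CPM) and Tpsb2 lay within the control range there. Il1rl1 (3.44 CPM, against 3.49 to 6.92 CPM) lay below it. Hdc was highest in mutant 3, at 54.6 CPM. The 6 plasmacytoid dendritic cell markers summed to 630 to 731 CPM in controls and to 126, 205 and 151 CPM in mutants, with 2 lower. The fall of the sum lay mostly in 1 gene, Ly6d, at 450 to 537 CPM in controls, against 5.05 ± 2.04 CPM in mutants (adjusted p = 0.00168 by edgeR), while Tcf4 was at 110 ± 4.25 and 76.4 ± 12.3 CPM (adjusted p = 0.127). Siglech, a defining gene of these cells, likewise named after its values were seen, was at 17.0 ± 3.70 CPM in controls, against 0.178, 19.9 and 1.49 CPM in mutants 1, 2 and 3. The rest of this list, named in the same way, went different ways. Ccr9 was at 7.33 to 11.0 CPM in controls, against 0.823, 0.955 and 1.51 CPM in mutants (adjusted p = 0.0109 by edgeR). Bst2 was at 37.8 to 57.7 CPM, against 35.3, 90.8 and 80.0 CPM. Cox6a2 was at 2.48 to 3.72 CPM, against 0.412, 4.93 and 1.69 CPM.

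**Figure D4:**
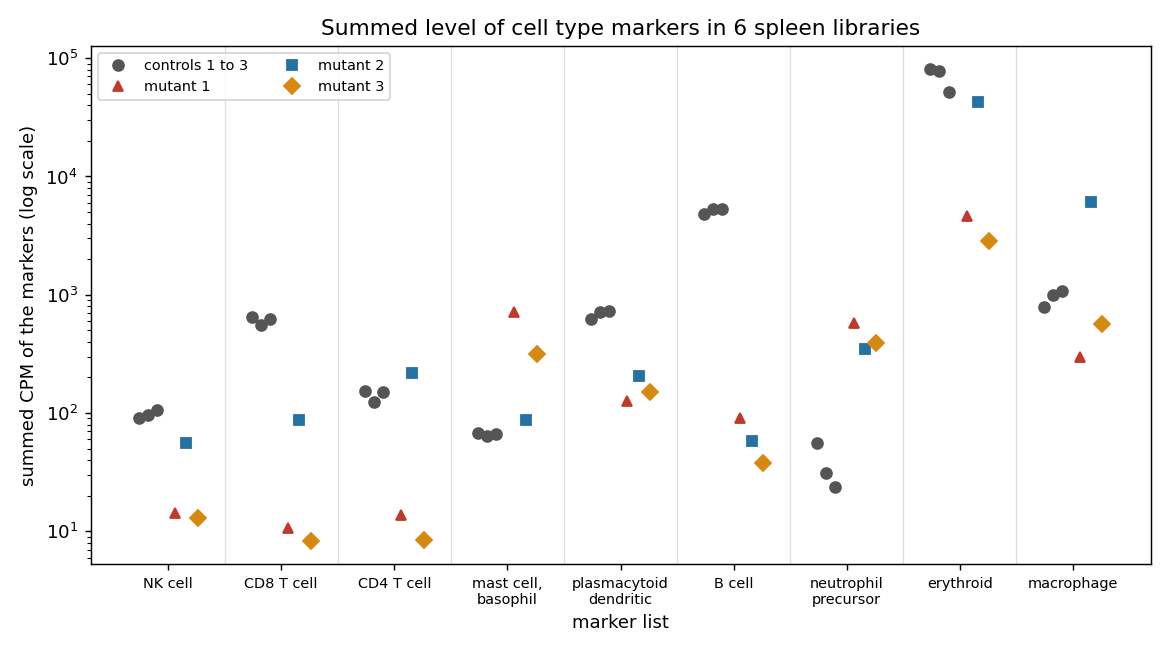
Summed CPM of the genes of 9 marker lists (vertical axis, log scale) in each library, with circles for the controls and a triangle, square and diamond for mutants 1, 2 and 3. The NK and CD8 T-cell sums are lowest in mutants 1 and 3, and the mast cell and basophil sum is 715 CPM in mutant 1 against at most 67.5 CPM in controls.

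Other spleen cells were measured the same way, beside 6.90% of all genes tested called lower and 5.08% called higher. All 6 B-cell markers fell, summing to 4773 to 5347 CPM in controls, against 37.6 to 90.0 CPM in mutants, with Cd79b among the most abundant. Of 6 neutrophil precursor markers 5 rose, summing to 23.9 to 55.6 and 350 to 581 CPM, with Prtn3 and Mpo the most abundant on average over the 6 libraries. Of 7 erythroid markers 2 rose, with sums of 51280 to 80212 CPM in controls, against 4674, 42811 and 2824 CPM in mutants. In controls the sums were nearly all from the globin genes Hbb-bs and Hba-a1, which lay below the controls in all 3 mutants (adjusted p = 0.306 and 0.347 by edgeR). The list's median log2 change was instead 2.11, and 4 of 7 genes lay above all controls in every mutant, beside 18.0% of genes tested. The 6 macrophage markers gave 0 calls and summed to 788 to 1072 CPM in controls and to 300, 6066 and 562 CPM in mutants, with Vcam1 and C1qa the most abundant on average over the 6 libraries and mutant 2 the highest library.

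Profiles over the 6 libraries were compared by the root mean square difference of log2 CPM after each gene was centred on its own mean. This measure follows the division into 2 groups and the differences among mutants together, and the libraries are shared by all genes. Nearest to Prf1 were Abtb2 (0.29), Nxnl1 (0.35) and Gata3 (0.36), with Abtb2 at 11.3 to 14.1 CPM in controls, against 0.576, 5.45 and 17.8 CPM in mutants. Nearest to Ncr1 were the aminopeptidase gene Anpep (0.16), Rab39 (0.18) and Dusp22 (0.23), with Anpep at 32.5 to 46.8 CPM in controls, against 2.72, 39.4 and 4.94 CPM in mutants. Nearest to Gzmb, at larger distances, were Rab3b (0.74), Scara5 (0.77) and the desmoplakin gene Dsp (0.78), with Rab3b at 2.22 to 2.54 CPM in controls, against 1990 CPM in mutant 1. No NK cell marker of the lists was among these 9 genes. That says little, because only the nearest few of all genes tested were taken for each member.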

How the data were processed

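Spleen RNA went into stranded libraries after poly-A selection, per the labels' protocols. The table the authors deposited holds raw whole-number counts per Ensembl gene for 3 mutants and 3 controls. The submitters' processing notes list STAR 2.5.3a, limma, mm10 and GRCm38 but no role for any of them. Which annotation, strand setting and treatment of shared reads the counting used is not given in the sources used here. Symbols, positions and exon lengths came from GENCODE M21 (GRCm38) by identifier, with 31669 of 31771 matched. Replicate numbers follow accession order. The labels do not say whether samples of a group came from separate animals, so p-values measure only the spread between these samples, which may be technical among the controls.

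Genes were tested with edgeR 4.0.16 under R 4.3.3 (TMM factors, filterByExpr with a minimum count of 10, robust quasi-likelihood fits, no covariate, Benjamini-Hochberg adjustment at 0.05 over all genes kept). The fit was tried on simulated data whose spread came from the controls alone, so the wider spread among mutants was not covered. CPM use library totals without TMM factors. An SE was taken as log2 fold change over the root of the F statistic. Alternatives were other scalings, filters and tools (DESeq2 1.42.0, limma 3.58.1) and each library left out in turn. The members and lists were chosen with earlier results of these data known. All members were named, with called genes (else the most abundant) of each list and the 2 most abundant of each marker list, except 1 gene that is not reported here; other genes are marked in the text as named after their values were seen. Lists held 139 genes, of which 136 were found.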

Additional observations from a re-analysis of the deposited data

How the results depend on the processing

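Of 126 values that the 9 tested members took over 14 alternatives, 108 kept their direction and their side of the threshold, 3 kept their direction with no adjusted p (DESeq2 for Gzmb, Gzmk and Ncr1), 8 passed the threshold that the main test missed (Tbx21, Eomes, Ncr1 and Gzmk), and 7 changed sign, all far from the threshold. The sign changes came with a library left out, over which the log2 fold change ranged from -3.76 to 0.32 for Gzmk, from -0.70 to 0.22 for Gzmm and from -1.71 to 0.45 for Prf1. The Gzmb value of 6.83 was 1.01 and 2.77 by the limma-voom fits. Other scalings and filters changed no direction and no call of a member. The members called lower were 1 by DESeq2, 2 by limma-voom with sample weights and 1 by limma-voom with group-wise variances, and 0 to 4 with a library left out. Over all genes, DESeq2 called 2444 higher and 2640 lower, limma-voom with sample weights 1818 higher, and limma-voom with group-wise variances 762 lower. With a library left out the calls ranged from 4 to 2794 higher and from 119 to 3137 lower, lowest without a control. The cause was not tested. With 3 samples a group, and the mutants as unlike as they were, a missed threshold does not show that a member did not differ. Gzmc was too low to test, and its value without a filter was not used.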
